A study of Rattus norvegicus with 6 samples.

Results

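T cells were picked out of 6 droplet libraries of Sprague Dawley rat brain, 3 of them labelled pontine infarction and 3 labelled sham, in a series whose title names the pons. All libraries carry the label postnatal day 21, no transgene or sorting step is named, and neither the time since the infarction nor the content of the sham procedure is stated. The labels say that 3 rats received an infarction and do not tie libraries to animals, so p-values measure only the spread between these libraries, which may be technical. A cell barcode with at least 500 UMIs (unique molecular identifiers, each standing for 1 captured transcript), at least 200 genes and at most 20% mitochondrial UMIs was kept, and a kept cell was called a T cell when at least 2 of Cd3d, Cd3e, Cd3g and Trbc2 had a UMI. Cells at or above 40 C1qa, C1qb and C1qc UMIs or 200 S100a8 and S100a9 UMIs per 10000 were left out, because these genes mark microglia and macrophages or neutrophils. The rule found 567 T cells among 38685 kept cells (1.47%), 254 in the infarction libraries and 313 in the sham libraries.

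T cells recognise peptide fragments through a receptor whose constant chain is encoded by Trbc2 in part of the cells and whose signal is passed on by the CD3 chains. Helper cells carry the coreceptor CD4, cytotoxic cells carry CD8 and release granzymes and perforin, and regulatory cells, defined by the transcription factor Foxp3, restrain other T cells. The healthy brain holds few T cells, mostly at its borders and vessels, and after a stroke T cells of all 3 kinds are known to enter the injured tissue, regulatory cells later than the others.

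The genes used to choose the cells are given as a description. All 4 genes were detected in 188 infarction and 213 sham T cells, 3 in 40 and 72, and exactly 2, just inside the rule, in 26 and 28. Just outside it, 386 infarction and 70 sham cells held exactly 1 of the 4 genes, and 5 and 7 more cells failed the C1q or S100 limit. Cd3e, a signalling chain of the receptor, had 789, 794 and 844 CPM (UMIs scaled to the normalised sum of tested genes in the T cells of a library) in infarction 1 to 3, against 731, 582 and 829 CPM in sham 1 to 3. Cd247, a signalling chain of the receptor that the rule did not use, had 179, 235 and 202 CPM in infarction, against 221, 258 and 257 CPM in sham, while the other kept cells held 0.385 CPM in infarction and 0.511 CPM in sham. No T cell barcode was shared between libraries, and 8 to 21 of all deposited barcodes were shared by each pair of libraries.

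T cells had a median of 5983, 5276 and 5800 UMIs in infarction 1 to 3 and 4321, 5833 and 5226.5 UMIs in sham 1 to 3, and their summed counts ranged between 418623 and 897344 UMIs per library. Their median mitochondrial share was 6.90%, 9.38% and 8.31% in infarction and 4.80%, 5.10% and 6.12% in sham, and the groups did not overlap. Some droplets also held many transcripts of another cell type, and these differed by group. In infarction, 7, 4 and 4 T cells carried over 100 UMIs per 10000 from 36 genes of microglia, macrophages, neutrophils and monocytes, and no sham T cell did. In sham, 12, 4 and 5 T cells carried over 100 UMIs per 10000 from 15 genes of mural cells, the contractile cells of the vessel wall, and no infarction T cell did. A further 4 droplets of sham 2, with 27061 to 65140 UMIs each, held at least 1248 UMIs per 10000 from 16 genes of glia and neurons, nearly all of them Ttr, the transthyretin transcript of the choroid plexus; the highest other T cell outside these classes held 153. These 40 mixed droplets (15 infarction and 25 sham) held 27.2%, 10.6% and 7.65% of the T cell UMIs in infarction 1 to 3 and 27.6%, 25.1% and 17.3% in sham 1 to 3. Results are therefore given with and without them, a definition made after seeing the data.

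**Figure D1:**
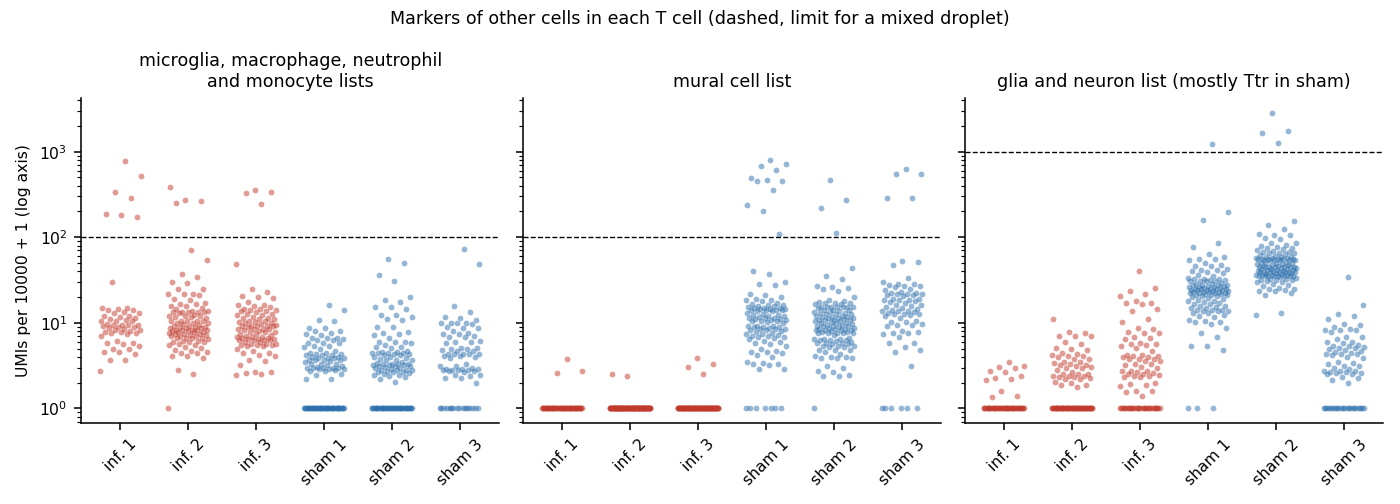
Transcripts of other cell types in each T cell, as UMIs per 10000 with 1 added on a log axis (1 point per cell, infarction red, sham blue, by library); dashed lines mark the limits for a mixed droplet. Points above the line lie only in infarction for the myeloid lists, where 15 cells pass it, and only in sham for the mural list, where 21 do.

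Outside the mixed droplets a low level of the same transcripts remained in most T cells. The median T cell of the 3 sham libraries held 9.84, 8.31 and 14.1 mural UMIs per 10000, and that of every infarction library held 0. The summed mural list without mixed droplets was 0.0984, 0.0355 and 0.0679 UMIs per 10000 in infarction 1 to 3 and 9.13, 8.60 and 13.7 in sham 1 to 3. Over all T cells, mixed droplets included, 12 to 14 of its 15 genes had no UMI in an infarction library, and none of the 15 was at 0 in a sham library. For the microglia and macrophage list the sums without mixed droplets were 7.51, 10.6 and 6.91 in infarction and 1.99, 3.75 and 4.40 in sham. In the neutrophil and monocyte list, 6 or 7 of 16 genes were at 0 over all T cells of an infarction library and 12 to 15 over those of a sham library; without mixed droplets the list had no UMI in sham 3. The part that such transcripts play in the differences below was not tested beyond leaving out the mixed droplets.

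T cells made up 0.954%, 1.39% and 1.55% of kept cells in infarction 1 to 3 and 1.86%, 1.90% and 1.16% in sham 1 to 3. The means, 1.30% ± 0.309 and 1.64% ± 0.416 (SD, n = 3 each), overlapped and could not be separated (two-sided exact permutation p = 0.3, where 3 against 3 libraries cannot go below 0.1). Counting cells with at least 1 of the 4 genes turned the direction, with 3.33% ± 0.905 in infarction and 2.0% ± 0.407 in sham (exact permutation p = 0.1). With at most 10% mitochondrial UMIs the groups did not overlap and the difference was larger, with 1.05% ± 0.153 in infarction and 2.97% ± 0.99 in sham (exact permutation p = 0.1). This limit acts unevenly. The median mitochondrial share of all kept cells was 6.98% in infarction and 9.97% in sham, and that of T cells 8.54% and 5.17%. How much of the larger difference comes from the filter was not tested. Among kept cells with a UMI of Ptprc, the gene of the leukocyte protein CD45, T cells were 1.2%, 1.83% and 1.97% in infarction and 18.2%, 11.6% and 5.60% in sham. These groups did not overlap (means 1.66% ± 0.411 and 11.8% ± 6.29, exact permutation p = 0.1), over 4527 to 5195 Ptprc-positive cells in an infarction library and 550 to 1267 in a sham library.

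Cells with Foxp3, the regulatory factor, were more frequent in every infarction library than in any sham library. A Foxp3 UMI was found in 7 of 57, 17 of 103 and 10 of 94 T cells of infarction 1 to 3, against 2 of 112, 1 of 123 and 0 of 78 in sham 1 to 3. These are 12.3%, 16.5% and 10.6% in infarction and 1.79%, 0.813% and 0% in sham, where 0 of 78 cells allows a share of up to 3.85%. The means were 13.1% ± 3.03 and 0.866% ± 0.894 (SD, n = 3 each; exact permutation p = 0.1, the smallest possible). With every cell thinned to 2000 UMIs they were 9.22% and 0.708%, and without mixed droplets 12.4% and 0.957%. Foxp3 was found in 0 of 3630 infarction and 0 of 3816 sham cells at or above the C1q limit, which allows shares of up to 0.0826% and 0.0786% at median depths of 7565 and 5525 UMIs.

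Coreceptor transcripts split the T cells unevenly. Cd8a without Cd4 was found in 47.4%, 27.2% and 57.4% of T cells in infarction 1 to 3 and in 79.5%, 44.7% and 64.1% in sham 1 to 3, so the groups overlapped (means 44.0% ± 15.4 and 62.8% ± 17.4, exact permutation p = 0.3). Cd4 without Cd8a was found in only 4, 13 and 6 infarction cells and 3, 6 and 3 sham cells. That is 7.02%, 12.6% and 6.38% in infarction and 2.68%, 4.88% and 3.85% in sham (means 8.67% ± 3.43 and 3.80% ± 1.10, exact permutation p = 0.1; thinned to 2000 UMIs 4.32% and 1.16%, p = 0.2). No T cell had UMIs of both, and 45.6%, 60.2% and 36.2% of infarction T cells and 17.9%, 50.4% and 32.1% of sham T cells had neither. A Cd4 UMI was also found in 5.90% of infarction and 17.8% of sham cells at or above the C1q limit, cells that in the rat are known to express CD4, and in 0 of 135 infarction and 0 of 338 sham endothelial-like cells, which allows shares of up to 2.22% and 0.888%. In the cells at or above the C1q limit Cd8a was found in 14.8% in infarction and 0.157% in sham, and rat macrophages and NK cells are known to carry CD8 as well.

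Cells with at least 2 of the proliferation genes Mki67, Top2a, Cdk1 and Birc5 numbered 3, 3 and 8 in infarction 1 to 3 and 0, 2 and 0 in sham 1 to 3. Their shares were 5.56% ± 2.81 and 0.542% ± 0.939 (SD, n = 3 each, exact permutation p = 0.1), and 2.66% and 0.321% after thinning. In cells at or above the C1q limit Mki67 was found in 34.3% in infarction and 1.47% in sham, so these transcripts were also more frequent in other infarction cells; whether free RNA adds to the T cell shares was not tested.

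**Figure D2:**
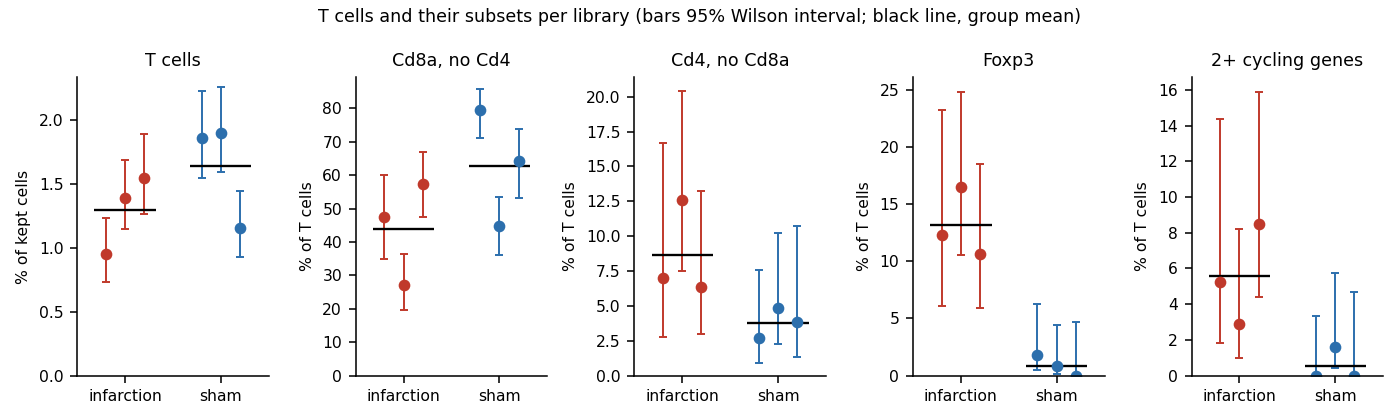
Share of T cells among kept cells and share of T cells with Cd8a only, Cd4 only, Foxp3 or at least 2 proliferation genes, in percent for each library (infarction left, sham right); bars are 95% Wilson intervals for counting error and black lines are group means. Foxp3 shares lie at 10.6% to 16.5% in infarction and at 0% to 1.79% in sham, while the Cd8a shares overlap.

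Summed over T cells per library, 5144 genes could be tested and 661 (12.8%) passed an adjusted p of 0.05 in edgeR's quasi-likelihood test. Of these 325 were higher in infarction (6.32%) and 336 lower (6.53%), while the CPM of the groups did not overlap for 1717 genes (33.4%). In the group where they were higher, 151 of the 325 and 279 of the 336 lay below the level of the other kept cells. Scaling on genes at least as high in T cells as in other cells moved the median log2 fold change of all genes by -0.11 and the split to 242 higher and 449 lower. Without mixed droplets 344 of 4332 genes passed (7.94%; 207 higher, 4.78%, and 137 lower, 3.16%), and 161 of the 325 and 99 of the 336 were called again in the same direction. Genes called in T cells that stood at least 2 times above the other kept cells in the higher group numbered 78 higher (1.52%) and 30 lower (0.583%), of which 51 and 28 were called again without mixed droplets. From these, the 10 of highest and the 10 of lowest fold change are described first.

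**Figure D3:**
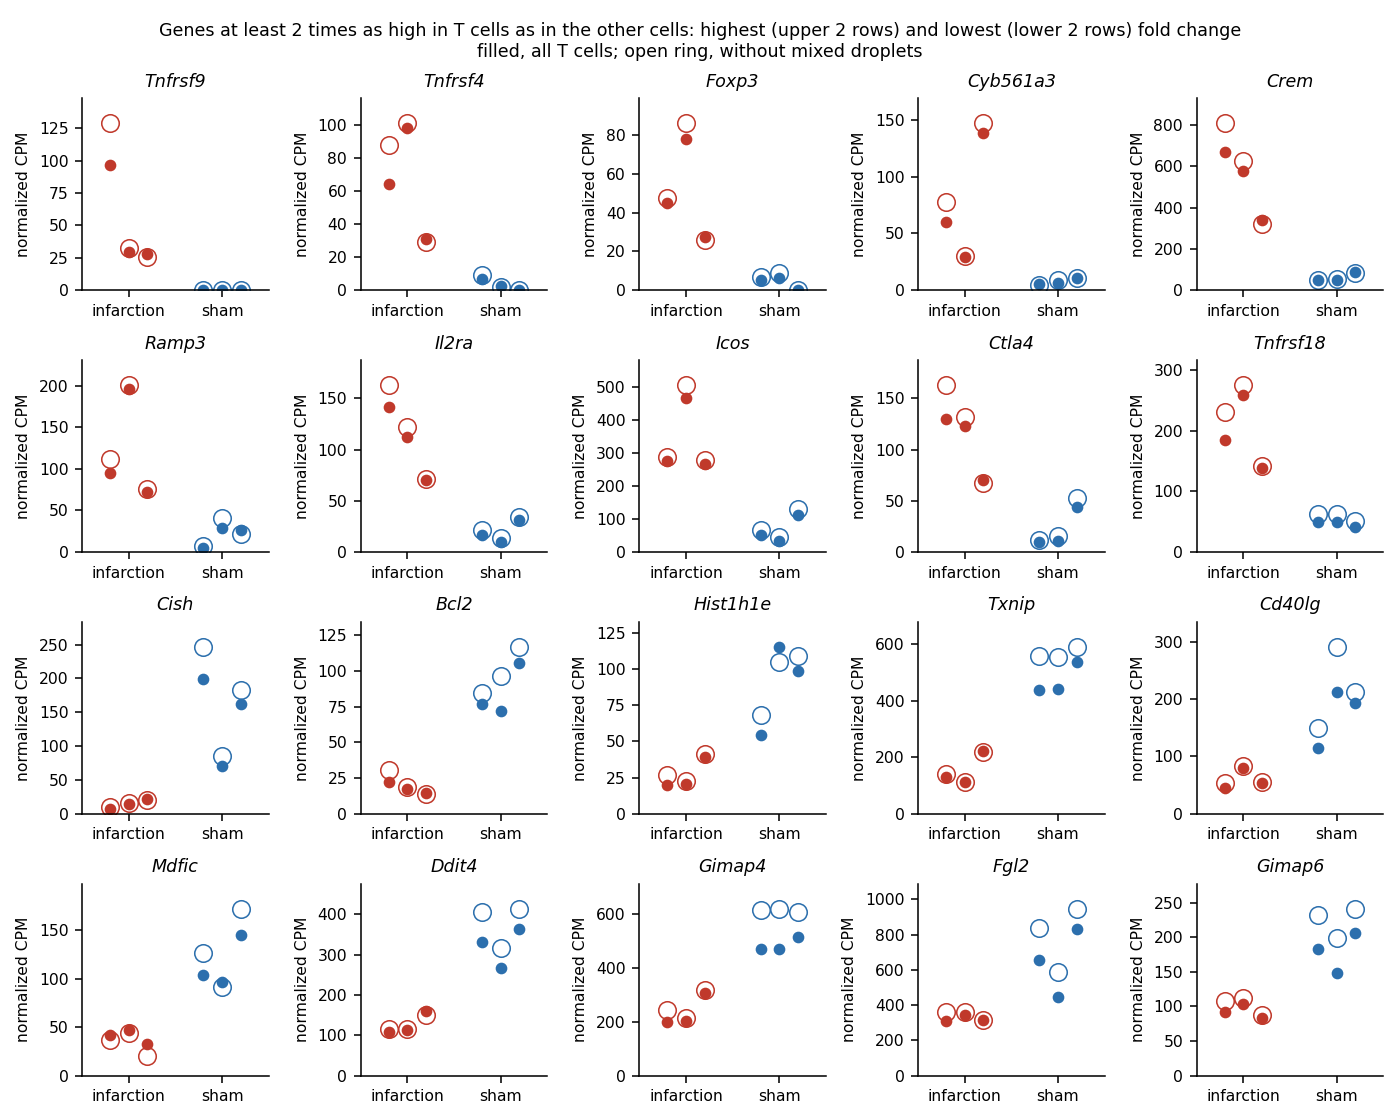
CPM per library of the 10 T cell genes of highest (upper rows) and the 10 of lowest fold change (lower rows), infarction red and left, sham blue and right; filled points are all T cells and open rings leave out mixed droplets. In all T cells, groups without overlap were a condition for choosing these genes, which 33.4% of the 5144 tested genes met. Without mixed droplets none of them overlaps either.

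Foxp3 and other genes of a regulatory T cell list were higher after infarction. Of the 7 members that passed the filter on low counts, out of 16 in the files, 6 rose, none fell and the median log2 fold change was 2.56, against -0.03 over all 5144 genes; 4 of the 7 were called without mixed droplets. Tnfrsf9, Tnfrsf4 and Foxp3 had 0, 6 and 8 UMIs in sham and passed the filter through their infarction counts, which tilts this count and median upward, and members of other lists that are rare in 1 group carry the same limit. Foxp3, the lineage-defining factor, had 44.8, 77.8 and 27.6 CPM in infarction 1 to 3, against 5.10, 6.19 and 0 CPM in sham 1 to 3 (80 and 8 UMIs in all). Its log2 fold change was 3.49 ± 0.60 (SE, edgeR adjusted p = 0.00312; 3.15 and 0.0107 without mixed droplets). Il2ra, the high-affinity chain of the interleukin-2 receptor on which regulatory cells depend, had 142, 112 and 69.9 CPM in infarction, against 17, 9.91 and 30.8 CPM in sham (log2 2.56 ± 0.39, edgeR adjusted p = 0.00153). Every infarction library was above every sham library for each of these genes, which was a condition for choosing them.

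Costimulatory receptors of the tumour necrosis factor receptor family, which deliver survival signals to activated and regulatory T cells, followed the same order. Tnfrsf18 (GITR) had 184, 259 and 138 CPM in infarction, against 49.3, 49.5 and 41.8 CPM in sham (log2 2.03 ± 0.24, edgeR adjusted p = 0.000159). Tnfrsf4 (OX40) had 64.7, 98.6 and 30.9 CPM in infarction, against 6.80, 2.48 and 0 CPM in sham (log2 4.23 ± 0.68, edgeR adjusted p = 0.00362). Tnfrsf9 (4-1BB) had 97.1, 29.4 and 27.6 CPM in infarction and no UMI in sham, at least 28.2-fold higher against a floor of 3 counts over the sham group. Its call (edgeR adjusted p = 0.0405) held in 9 of 15 settings. Among others it was lost without mixed droplets (0.227), without infarction 2 (0.076), infarction 3 (0.0526) or sham 1 (0.0533). Of its infarction UMIs 4.11% lay in mixed droplets. Tnfrsf18 and Tnfrsf4 passed in every setting in which they were tested, 17 for Tnfrsf18 and 16 for Tnfrsf4.

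Ctla4, an inhibitory receptor that competes for the ligands of CD28, had 129, 123 and 69.9 CPM in infarction, against 10.2, 11.1 and 44.0 CPM in sham. Its log2 fold change of 2.41 ± 0.54 passed at an edgeR adjusted p of 0.0261, but in only 8 of 17 settings; it reached 0.0621 without mixed droplets, 0.0577 with the replicate number as a block, and between 0.0534 and 0.113 without infarction 1, infarction 2, sham 1 or sham 2. Icos, a costimulatory relative of CD28, had 274, 465 and 267 CPM in infarction, against 51.0, 32.2 and 112 CPM in sham (log2 2.43 ± 0.50, edgeR adjusted p = 0.0337). It was called in 9 of 17 settings, with 0.0429 without mixed droplets, 0.0543 with the replicate block, and 0.0717 to 0.130 without infarction 1, 2 or 3 or sham 1. Sham 3 was the highest sham library for both genes, and still below every infarction library, as the rule for naming them required.

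Foxp3-positive T cells of the infarction libraries (34 cells, median 5210 UMIs, 3 of them mixed droplets) differed from the other 220 infarction T cells (median 5794 UMIs) in many of these genes. These values describe cells chosen by Foxp3, and cells of a library are not replicates, so no test is given. Tnfrsf18 was detected in 94.1% of Foxp3-positive and 32.7% of other T cells, Il2ra in 79.4% and 17.3%, and Tnfrsf4 in 58.8% and 13.6%. Tnfrsf9 was detected in 38.2% and 3.18%, and Ctla4 in 44.1% and 31.8%. Cd8a was detected in 11.8% and 47.7%, and Nkg7, a cytotoxic granule protein, in 5.88% and 40%. Cd4 was not more frequent in the Foxp3-positive cells, with 2 of 34 (5.88%) and 21 of 220 (9.55%). The receptors Lag3 (17.6% and 27.7%) and Tigit (5.88% and 10%) were also less frequent in them. Ikzf2 (Helios), a factor of many regulatory cells, was found in 2 of the 34 cells, and Il10, the gene of a suppressive cytokine, in none of them. Icos and Crem were frequent in both classes, with Icos in 85.3% and 60.5% and Crem in 85.3% and 73.2%.

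Leaving out Foxp3-positive cells of both groups gave the values of the remaining T cells. Crem was still called (log2 3.18, edgeR adjusted p = 0.00124), as were Tnfrsf18 (1.58, 0.0113) and Ctla4 (2.34, 0.0331). Il2ra had a log2 fold change of 1.30 (edgeR adjusted p = 0.0832) and Icos one of 2.29 (0.0536), and neither passed. Of the 4818 genes tested in these cells 588 were called (12.2%), 287 higher (5.96%) and 301 lower (6.25%).

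Most tested activation genes were also higher in infarction. Of 15 tested members of the list of activation and inhibitory receptors, which shares 5 of its risen genes with the regulatory list, 10 rose and 1 fell (median log2 1.2; 8 rose and none fell without mixed droplets). Outside that list, Crem, a cyclic-AMP responsive repressor induced in activated T cells, had 669, 578 and 338 CPM in infarction, against 47.6, 47.1 and 85.7 CPM in sham (log2 3.16 ± 0.34, edgeR adjusted p = 0.000749; 3.24 and 0.0047 without mixed droplets). Ptpn22, a phosphatase of the receptor signalling list that restrains the receptor, had 261, 263 and 262 CPM in infarction, against 121, 95.4 and 145 CPM in sham (log2 1.13 ± 0.18, edgeR adjusted p = 0.00118). Nr4a3, a member of the activation list and an orphan nuclear receptor switched on by the T cell receptor, had 59.7, 38.1 and 52.0 CPM in infarction, against 15.3, 2.48 and 8.79 CPM in sham (log2 2.55 ± 0.46, edgeR adjusted p = 0.00293). All 3 passed in every one of 17 settings.

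Cyb561a3, which encodes a lysosomal ferric reductase, had 59.7, 29.4 and 138 CPM in infarction, against 5.10, 6.19 and 11 CPM in sham (log2 3.40, edgeR adjusted p = 0.0232; 0.0606, 0.109, 0.101 and 0.0554 without infarction 1, sham 1, sham 2 or sham 3). Ramp3, a partner protein of peptide hormone receptors, had 94.6, 195 and 71.5 CPM in infarction, against 5.10, 28.5 and 26.4 CPM in sham (log2 2.57, edgeR adjusted p = 0.0481). Ramp3 was called in 8 of 17 settings, with 0.0575 without mixed droplets and 0.051 to 0.108 without infarction 1, 2 or 3, sham 2 or sham 3. Both genes separated the groups in every library, a condition for naming them, while their calls depended on single libraries.

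NF-kappa-B is a transcription factor that T cells activate through their antigen and costimulatory receptors, and it switches on its own inhibitors. Of 12 tested members of the list of its subunits and feedback genes, 6 rose and none fell (median log2 1.26). Without mixed droplets 4 rose and none fell (median 0.86). The share called higher over all genes was 6.32%, and 4.78% without mixed droplets. Nfkbia, the inhibitor that holds NF-kappa-B in the cytoplasm, had 821, 602 and 483 CPM in infarction, against 277, 245 and 257 CPM in sham (log2 1.29 ± 0.19, edgeR adjusted p = 0.000708; 0.73 and 0.0102 without mixed droplets). Birc3, an inhibitor of apoptosis and adaptor of receptor signalling, had 42.3, 39.8 and 22.8 CPM in infarction, against 8.50, 1.24 and 8.79 CPM in sham (log2 2.59 ± 0.52, edgeR adjusted p = 0.00563, 0.0588 without infarction 2). Bcl3, a nuclear cofactor of NF-kappa-B, had 46 UMIs in infarction and 2 in sham, a ratio of 26.7 with a counting interval between 6.98 and 227 (edgeR adjusted p = 0.000623). Tnip1, which dampens the pathway, had 79.6, 76.1 and 82.9 CPM in infarction, against 39.1, 42.1 and 39.6 CPM in sham (log2 0.97 ± 0.22, edgeR adjusted p = 0.011, 0.0878 in DESeq2). Nfkbiz and Nfkbib were the other 2 called members, and lost the call without mixed droplets (adjusted p = 0.0602 and 0.0790).

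Promoters of the risen members are shown as a description. The list was chosen for its ties to NF-kappa-B, so these counts are no test of a link. Of the 6, 5 have an entry in the RefSeq promoter table (build GRCr8; Birc3 has none), and 4 of these hold the letters of an NF-kappa-B site (GGG, any 2 bases, TT, any base, CC, searched on both strands) in the 250 bases before the start, as do 1 of the 6 members that were not called and 4.36% of all 33469 promoters. In capitals are these letters: for Bcl3 at chr1:88613556-88613805 (minus strand), Nfkbia at chr6:78597073-78597322 (minus strand), Tnip1 at chr10:39584962-39585211 (minus strand) and Nfkbiz at chr11:58251471-58251720 (plus strand).
Bcl3: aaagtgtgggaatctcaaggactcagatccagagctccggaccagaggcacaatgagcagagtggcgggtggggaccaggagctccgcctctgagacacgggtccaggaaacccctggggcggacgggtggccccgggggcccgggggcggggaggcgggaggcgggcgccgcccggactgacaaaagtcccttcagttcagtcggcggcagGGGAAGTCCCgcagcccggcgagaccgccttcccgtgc
Nfkbia: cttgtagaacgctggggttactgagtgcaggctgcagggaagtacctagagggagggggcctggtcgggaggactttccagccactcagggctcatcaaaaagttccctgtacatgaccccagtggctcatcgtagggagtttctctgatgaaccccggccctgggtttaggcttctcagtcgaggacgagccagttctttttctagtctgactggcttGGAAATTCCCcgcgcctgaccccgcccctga
Tnip1: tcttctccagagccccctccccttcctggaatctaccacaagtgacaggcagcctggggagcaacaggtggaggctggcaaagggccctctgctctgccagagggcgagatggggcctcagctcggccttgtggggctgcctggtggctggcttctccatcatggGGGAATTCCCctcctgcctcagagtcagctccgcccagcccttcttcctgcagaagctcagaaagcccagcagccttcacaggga
Nfkbiz: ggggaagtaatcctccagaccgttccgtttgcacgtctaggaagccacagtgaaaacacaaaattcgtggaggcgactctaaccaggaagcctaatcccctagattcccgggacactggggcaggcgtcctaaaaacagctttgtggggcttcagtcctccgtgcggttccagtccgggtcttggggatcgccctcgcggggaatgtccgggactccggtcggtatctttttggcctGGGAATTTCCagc
The matches lie 38 to 29 bases before the start in Bcl3, 31 to 22 in Nfkbia, 85 to 76 in Tnip1 and 13 to 4 in Nfkbiz; those of Bcl3 and Nfkbia are read on the other strand and that of Tnip1 on both. TGANTCA (AP-1 letters, 6.34% of all promoters) was in none of the 5 and in 2 of the 6, GGAAAA (NFAT core letters, 21.6%) in none and 1, and TGACG (letters of a cyclic-AMP element, 18.2%) in 1, Nfkbib, and 4. A match describes letters in this window and says nothing of binding.

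Among the 6 risen regulatory genes 5 have a promoter entry (Tnfrsf18 has none), and 1 of them, Tnfrsf4 at chr5:171888884-171889133 (plus strand), holds the NF-kappa-B letters. They are in capitals and are read on the other strand, 28 to 19 bases before the start, where GGAAAA on the gene strand overlaps them.
Tnfrsf4: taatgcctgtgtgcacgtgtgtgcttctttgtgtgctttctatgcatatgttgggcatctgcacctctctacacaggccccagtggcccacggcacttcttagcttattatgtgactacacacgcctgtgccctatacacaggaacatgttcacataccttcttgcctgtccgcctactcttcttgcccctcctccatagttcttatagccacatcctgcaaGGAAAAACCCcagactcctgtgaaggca
Tnfrsf9 holds GGAAAA 151 to 146 bases before its start, and the windows of Ctla4, Il2ra and Foxp3 hold none of the 4 sets of letters.

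All called members of the lists of cytokines and their receptors and of chemokine receptors were higher in infarction. Over all 5144 tested genes 6.32% were called higher and 6.53% lower. Of 9 tested members of the cytokine and receptor list, 2 rose and none fell. Ifngr1, a chain of the interferon-gamma receptor, had 326, 228 and 281 CPM in infarction, against 49.3, 60.7 and 68.2 CPM in sham (log2 2.23 ± 0.20, edgeR adjusted p = 2.13e-05; 2.02 without mixed droplets). Il4r, the interleukin-4 receptor chain, had 105, 90.0 and 65.0 CPM in infarction, against 18.7, 43.3 and 33.0 CPM in sham (log2 1.40 ± 0.31, edgeR adjusted p = 0.00909; 0.0501 without infarction 2). Of 8 tested chemokine receptors 2 rose and none fell. Cxcr4, the receptor for the chemokine Cxcl12, had 533, 531 and 546 CPM in infarction, against 179, 270 and 215 CPM in sham (log2 1.27 ± 0.17, edgeR adjusted p = 0.000341; 0.82 and 0.00864 without mixed droplets). S1pr4, a sphingosine-1-phosphate receptor, was the second (log2 0.96 ± 0.19, edgeR adjusted p = 0.00452), and Ccr6, a receptor of type 17 and regulatory cells, was called only without mixed droplets (log2 1.89, 0.0340).

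The hypoxia and glycolysis list had 6 risen and 1 fallen of 19 tested members (median log2 0.33), and 2 risen of 13 without mixed droplets. Hif1a, the oxygen-regulated factor that also drives glycolysis in activated T cells, had 221, 161 and 218 CPM in infarction, against 56.1, 65.6 and 70.4 CPM in sham (log2 1.64 ± 0.20, edgeR adjusted p = 0.000159; 1.66 without mixed droplets). Gapdh, a glycolytic enzyme, had 236, 142 and 226 CPM in infarction, against 98.6, 85.5 and 101 CPM in sham (log2 1.08 ± 0.21, edgeR adjusted p = 0.00453; 1.06 without mixed droplets). Ldha, which makes lactate, was no longer called without mixed droplets (log2 0.69, then 0.40 with an edgeR adjusted p of 0.130). Of 24 nuclear genes of the respiratory chain 4 fell and none rose (median log2 -0.31). Without mixed droplets 1 of 24, Uqcrq, fell (log2 -0.93, then -0.79, edgeR adjusted p = 0.00114 and 0.00329), and the list median was -0.002. Over all tested genes 6.32% were called higher and 6.53% lower, and 4.78% and 3.16% without mixed droplets. The 1 of 24 is thus near the share of all genes.

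Cish and Bcl2 were among the lower genes. Cish, a feedback inhibitor induced by interleukin-2 and related cytokines, had 7.47, 13.8 and 21.1 CPM in infarction, against 199, 70.6 and 163 CPM in sham (log2 -3.24 ± 0.50, edgeR adjusted p = 0.00558; 0.0537 without infarction 2). Bcl2, which keeps lymphocytes from apoptosis, had 22.4, 17.3 and 14.6 CPM in infarction, against 76.5, 71.8 and 106 CPM in sham (log2 -2.23 ± 0.29, edgeR adjusted p = 0.000249). Bcl2l11, whose product Bim opposes Bcl2, rose (log2 1.52, edgeR adjusted p = 0.008). The apoptosis and survival list had 2 risen and 5 fallen of 18 tested members (median log2 -0.29), and 2 and 7 without mixed droplets. The shares over all genes were 6.32% higher and 6.53% lower, and 4.78% and 3.16% without mixed droplets.

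GTPases of the Gimap family, which support lymphocyte survival in rodents, were the other fallen members of that list. Gimap4 had 199, 204 and 309 CPM in infarction, against 473, 472 and 514 CPM in sham (log2 -1.03 ± 0.18, edgeR adjusted p = 0.00253). Gimap6 had 92.1, 104 and 82.9 CPM in infarction, against 184, 149 and 207 CPM in sham (log2 -0.94 ± 0.19, edgeR adjusted p = 0.00556). Gimap5 (log2 -0.82) and Gimap9 (-0.83) also fell, while Gimap8 (-0.86, edgeR adjusted p = 0.0547) and Gimap7 (-0.33, 0.204) did not pass over all T cells and passed without mixed droplets. The direction was the same for these 6 genes with and without mixed droplets.

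Txnip, Ddit4 and Cd40lg were lower as well. Txnip, which limits glucose uptake and is high in quiescent cells, had 129, 111 and 223 CPM in infarction, against 437, 441 and 536 CPM in sham (log2 -1.60 ± 0.24, edgeR adjusted p = 0.0015). Ddit4, an inhibitor of the growth kinase mTORC1, had 107, 112 and 159 CPM in infarction, against 332, 268 and 363 CPM in sham (log2 -1.33 ± 0.20, edgeR adjusted p = 0.000675). Cd40lg, the helper cell ligand that activates B cells and macrophages, had 44.8, 79.6 and 53.6 CPM in infarction, against 114, 212 and 193 CPM in sham (log2 -1.53 ± 0.28, edgeR adjusted p = 0.00398). Mdfic (log2 -1.49), Fgl2, a prothrombinase-like protein secreted by regulatory cells (-0.99), and the linker histone gene Hist1h1e (-1.72) complete the 10. All 10 were called without mixed droplets; Fgl2 was not called without infarction 1 (edgeR adjusted p = 0.0602) or infarction 3 (0.0576), nor Hist1h1e without infarction 2 (0.0598).

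Jun, Fos and part of the heat shock genes were lower in infarction T cells. Jun, a subunit of the AP-1 factor, had 89.6, 178 and 122 CPM in infarction, against 697, 803 and 737 CPM in sham (log2 -2.51 ± 0.22, edgeR adjusted p = 2.08e-05; -2.36 and 0.00274 without mixed droplets). Fos, its partner, had 105, 190 and 132 CPM in infarction, against 649, 482 and 805 CPM in sham (log2 -2.17 ± 0.25, edgeR adjusted p = 0.000341; -1.09 and 0.00736 without mixed droplets). Over the AP-1 and immediate early list 2 of 19 tested genes (Gadd45b and Dusp5) rose, 3 fell and the others were not called (median log2 -0.29), and the third fallen gene, Nr4a1, lost its call without mixed droplets (log2 -0.84, then -0.04 with an edgeR adjusted p of 0.960). Of 13 tested heat shock genes 6 fell and none rose (median log2 -0.38), and 5 of 12 fell without mixed droplets. For both lists, the shares over all genes were 6.32% higher and 6.53% lower, and 4.78% and 3.16% without mixed droplets. Hspa1a, the inducible Hsp70, had 17.4, 76.1 and 37.4 CPM in infarction, against 920, 939 and 605 CPM in sham (log2 -4.18 ± 0.48, edgeR adjusted p = 0.00392). Dnajb1, its co-chaperone, had 112, 98.6 and 97.5 CPM in infarction, against 340, 358 and 253 CPM in sham (log2 -1.63 ± 0.18, edgeR adjusted p = 0.000102). The other kept cells showed the same order, with 114 CPM of Hspa1a and 353 CPM of Jun in infarction and 1219 CPM of Hspa1a and 1346 CPM of Jun in sham; whether handling of the tissue or free RNA moves these genes was not tested.

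**Figure D4:**
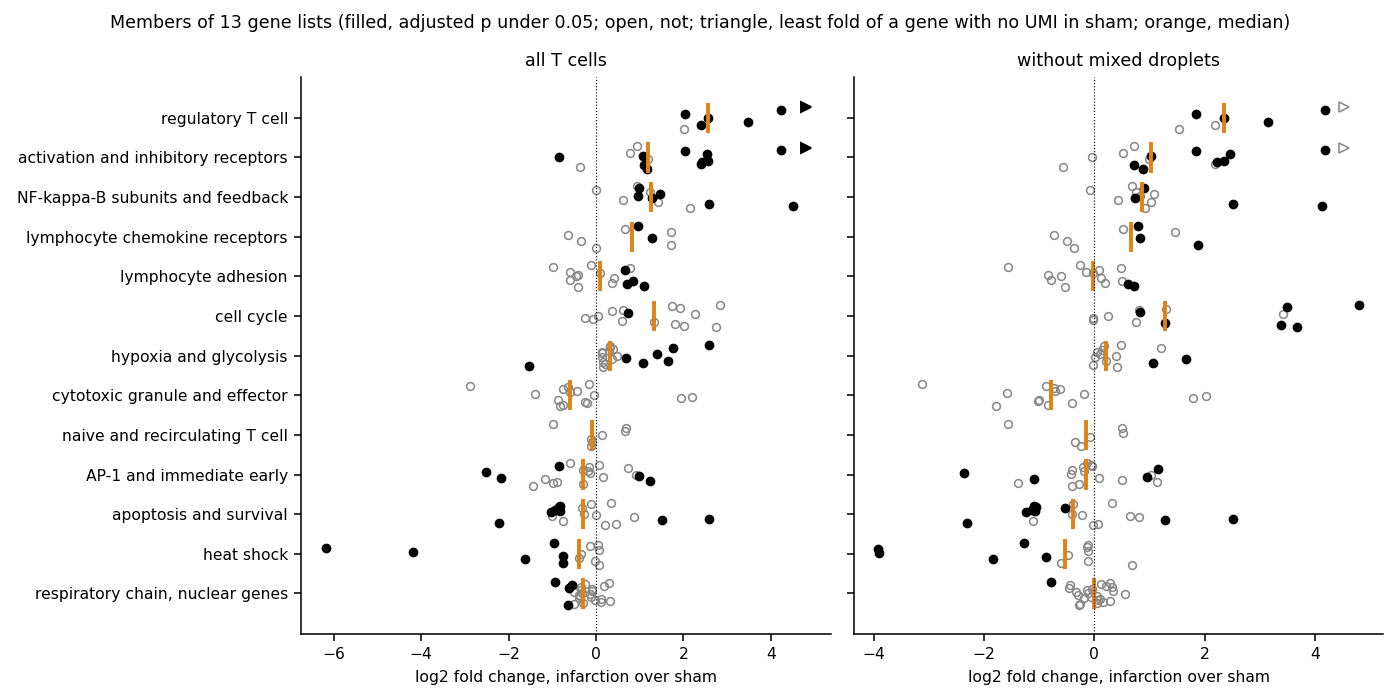
Log2 fold change, infarction over sham, of the tested members of 13 gene lists in all T cells (left) and without mixed droplets (right); filled points passed an edgeR adjusted p of 0.05, a triangle marks the least fold of a gene with no UMI in sham, and orange bars are medians. Regulatory, activation and NF-kappa-B members lie mostly right of 0, and the called heat shock members lie left of it.

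Several T cell programmes showed no call over all T cells. None of 15 tested cytotoxic genes and none of 7 tested naive and recirculating genes passed (medians -0.59 and -0.09). Cd8a had 309, 251 and 540 CPM in infarction, against 743, 463 and 605 CPM in sham (log2 -0.71 ± 0.31, edgeR adjusted p = 0.189); it was called in 3 of 17 settings, with no filter on low counts (0.00219), with the replicate block (0.0357) and without infarction 3 (log2 -1.08, 0.0193). Gzmb, the granzyme that triggers apoptosis in target cells, had 124, 29.4 and 153 CPM in infarction, against 15.3, 18.6 and 35.2 CPM in sham (log2 2.19 ± 0.70, edgeR adjusted p = 0.108, DESeq2 0.00103); infarction 2 fell within the sham range. Gzmk (log2 -0.05), Cxcr3 (-0.35), Cxcr6 (-0.63) and Il7r (-0.12) had edgeR adjusted p-values between 0.547 and 0.972. Cd4, with 26 infarction and 13 sham UMIs, Ccr7, Ifng and Ptcra had too few counts to be tested. A p above the threshold does not show that a gene was alike in the groups. In simulated counts of this size, 41% of genes changed 2-fold and 92% of those changed 4-fold were called. The simulation gave every gene the same spread and changed no rare gene. These shares therefore do not carry over to rarer or more variable genes, such as Gzmb.

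The cell cycle list had 1 called member, Pcna, among 15 tested (median log2 1.32), and 6 of 13 without mixed droplets. Among all genes 6.32% were called higher, and 4.78% without mixed droplets. The call of Pcna, a replication clamp, was lost without infarction 1, 2 or 3, sham 1 or sham 3 (log2 0.72, edgeR adjusted p = 0.0491, and 0.065 to 0.160 without those). Without mixed droplets Top2a (log2 3.50, edgeR adjusted p = 0.0239), Cdk1 (3.38, 0.0088), Birc5 (3.67, 0.0204), Ube2c (4.80, 0.0232), Hmgb2 (1.28, 0.0436) and Pcna (0.84, 0.0194) passed. Mki67 had 19.9, 53.6 and 146 CPM in infarction, against 3.40, 35.9 and 0 CPM in sham, and was not called in either setting.

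Large folds were also found for genes known from other cell types. Tyrobp, an adaptor of myeloid and NK cell receptors, had 1458, 609 and 1092 CPM in infarction, against 3.40, 19.8 and 22.0 CPM in sham (log2 6.11, edgeR adjusted p = 0.0038; 4.84 and 0.0223 without mixed droplets), while the other kept cells held 4055 CPM in infarction and 437 CPM in sham. Lgals3, a galectin of activated macrophages, had a log2 fold change of 4.12 that was 1.79 without mixed droplets, which held 83.6% of its infarction UMIs. Cd68, a macrophage lysosomal gene, had 171 infarction UMIs and 1 sham UMI, of which 90.1% of the infarction UMIs lay in mixed droplets; for Ccl7, a monocyte chemokine, it was 86.2% of 130 infarction UMIs, with none in sham. In the other direction Mgp, a vessel wall matrix protein, had no UMI in infarction T cells and 717, 254 and 754 CPM in sham, at least 279-fold lower against a floor of 3 counts over the infarction group. Tagln and Myh11, contractile proteins of smooth muscle, had 4 and 1 infarction UMIs, and mixed droplets held 90.3% and 92.6% of their sham UMIs. Of the microglia and macrophage list 5 of 13 tested genes were called higher, and of the mural list 7 of 11 were called lower.

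The Cd8a-positive T cells (27, 28 and 54 cells in infarction 1 to 3, and 89, 55 and 50 in sham 1 to 3) were set against the Cd8a-negative ones of the same library, a comparison added after seeing that only infarction 2 held 10 cells of both Cd4-only and Cd8a-only kind. Of 3471 genes tested with the library as a block, 73 (2.10%) were called, 41 higher in Cd8a-positive cells (1.18%) and 32 lower (0.922%); Cd8a itself chose the cells. Cytotoxic genes led: 8 of 14 tested were higher and none lower (median log2 2.97, against 0.02 over all 3471). Ccl5, a chemokine stored by cytotoxic cells, had 9412, 9054 and 5442 CPM in Cd8a-positive cells of infarction 1 to 3 and 8096, 5259 and 3255 CPM in those of sham 1 to 3. In Cd8a-negative cells it had 22.5, 157 and 378 CPM in infarction and 1184, 93.0 and 109 CPM in sham (log2 5.02 ± 0.78, edgeR adjusted p = 0.0468; 0.119 to 0.143 without infarction 2, infarction 3, sham 2 or sham 3). All 6 libraries had the higher value in Cd8a-positive cells.

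Nkg7 had 695, 630 and 680 CPM in Cd8a-positive cells of infarction and 781, 586 and 685 CPM in those of sham, against 45, 14.1 and 49.2 CPM in Cd8a-negative cells of infarction and 154, 36.6 and 40.1 CPM in those of sham (log2 3.86 ± 0.29, edgeR adjusted p = 7.85e-06). Gzmm, a granzyme of innate-like and cytotoxic cells (log2 3.98), Gzmb (3.05), Gzma (4.25, 0.329 without infarction 3), Ccl4 (3.67, 0.0798 to 0.105 without infarction 1, infarction 3 or sham 2) and Cd8b, the partner chain of Cd8a (5.57), were higher too. Gzmb was higher in Cd8a-positive cells in all 6 libraries, at 235, 60.3 and 254 CPM in infarction and 19.5, 36.9 and 60.2 CPM in sham.

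Cd40lg, Ccr6, Ramp3 and Tnfrsf4 were higher in the Cd8a-negative cells. Cd40lg had 0, 0 and 22.3 CPM in Cd8a-positive cells of infarction and 43.4, 29.5 and 56.4 CPM in those of sham, against 81.0, 108 and 103 CPM in Cd8a-negative cells of infarction and 453, 448 and 418 CPM in those of sham (log2 -3.34 ± 0.28, edgeR adjusted p = 6.77e-07). Ccr6 (log2 -3.50, edgeR adjusted p = 1.85e-05) and Ramp3 (-3.65, 0.00455) were lower in Cd8a-positive cells in all 6 libraries. Tnfrsf4 (log2 -3.53, edgeR adjusted p = 0.00282) was lower in 5 of 6 and had no UMI in either subset of sham 3. Il2ra was lower (log2 -2.0, edgeR adjusted p = 0.0275) and lost its call without infarction 1, 2 or 3 or sham 1 (0.0804 to 0.125), while Foxp3 (-2.33, 0.0817) passed only where mixed droplets or doublet-like cells were left out or no filter on low counts was set. Of 6 tested regulatory genes 3 (Tnfrsf18, Tnfrsf4 and Il2ra) were lower in Cd8a-positive cells and none higher. Pld4, Unc93b1, Ncf4, Cybb, Slpi and Cd14, genes of myeloid cells, were also called lower and had too few counts to be tested without mixed droplets, as had Ctgf and Gsta1, called higher and found almost only in sham T cells.

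**Figure D5:**
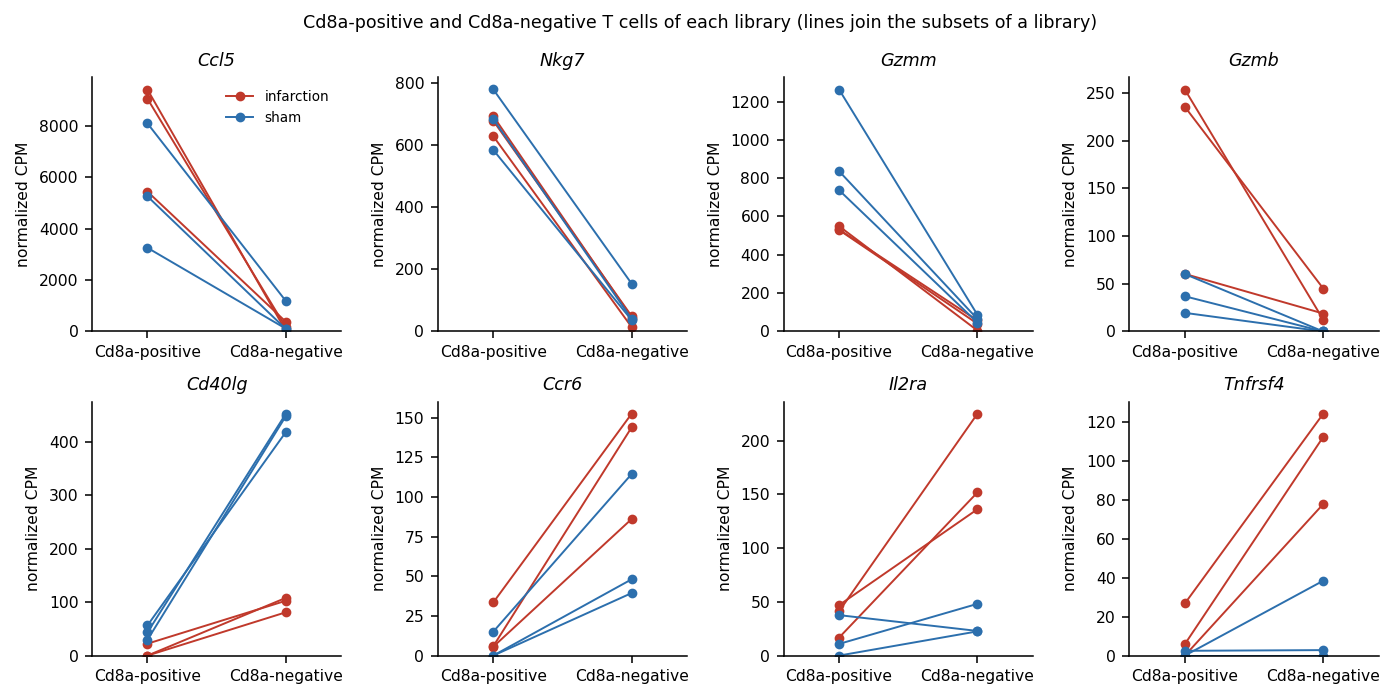
CPM of 8 genes in the Cd8a-positive (left) and Cd8a-negative (right) T cells of each library, with lines joining the 2 subsets of a library (infarction red, sham blue). Cytotoxic genes in the upper row fall to the right in all 6 libraries, and Cd40lg, Ccr6 and, in infarction, Il2ra and Tnfrsf4 in the lower row are higher in Cd8a-negative cells.

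The infarction difference was then compared between the subsets. In the test of that difference 65 of 3471 genes passed (1.87%), 47 with a more positive (1.35%) and 18 with a more negative (0.519%) infarction effect in Cd8a-positive cells. Leaving out mixed droplets left 10 of 2942, and leaving out 1 library gave between 6 and 134. Capg, an actin-capping protein also counted in the regulatory list, is given as an example. In Cd8a-positive cells it had 165, 161 and 117 CPM in infarction, against 0, 0 and 18.8 CPM in sham. In Cd8a-negative cells it had 383, 444 and 349 CPM in infarction, against 193, 101 and 344 CPM in sham. The difference between the effects was 3.92 ± 0.60 log2 units (edgeR adjusted p = 0.00455; 0.00873 without mixed droplets) and held without any 1 library. Its size rests on a sham level near 0 in Cd8a-positive cells, where sham 1 and sham 2 had no Capg UMI. It is therefore poorly fixed. On the CPM scale the rise of the group mean was larger in Cd8a-negative cells. Over all T cells Capg was not called (log2 2.01, edgeR adjusted p = 0.107; 0.0720 without mixed droplets).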

How the data were processed

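The deposited matrices hold UMI counts per gene and barcode; per the submitters' processing notes, CASAVA 1.8, Cell Ranger 3.1.0 and Seurat 2.3.4 were used, and the build is not given in the sources used here. The authors' raw counts of 25399 genes were used for 44011 barcodes (6399 to 8649 per library); for 121 symbols with several IDs, the ID with most counts was used. The cells, gene lists and tests were chosen with earlier results of these data known.

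Counts were summed over the T cells of each library and tested with edgeR 4.0.16 (R 4.3.3; TMM, filterByExpr, robust quasi-likelihood test, Benjamini-Hochberg over all genes tested, threshold 0.05), with DESeq2 1.42.0 as an alternative. CPM are normalised counts scaled to the tested genes. Shares were compared by two-sided exact permutation over 20 assignments, with 95% Wilson intervals and a floor of 3 counts, which cover counting error only. Doublets were not removed; a Scrublet score above 0.25 (832 of 38685 kept cells, 2.15%) was an alternative. Mixed droplets held over 100 UMIs per 10000 of mural or myeloid genes or over 1000 of glia and neuron genes. Named were the 10 genes of highest and the 10 of lowest fold change among called genes with at least 50 CPM in the higher group, no overlap between groups and at least 2 times the level of other cells, the 5 highest and 5 lowest without that last condition, up to 4 called members of each list, and a fixed set of T cell genes. On simulated data with 4922 genes, 41% of 2-fold and 92% of 4-fold changes were recovered. Every simulated gene had the same spread, and no rare gene was changed. Replicate pairs differed beyond sampling noise (chi-square per degree of freedom 3.44 to 10.4). Fits of Cd4-only against Cd8a-only cells and of T cells against NK-like cells (0 to 9 per library) were not run, since fewer than 10 cells of a kind were left in most libraries. Some genes that meet these rules are not reported here.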

Additional observations from a re-analysis of the deposited data

Results flagged for a closer look

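The infarction effect differed between Cd8a-positive and Cd8a-negative T cells, by edgeR's test of that difference itself, for the genes named here. The values are log2 effects in Cd8a-positive minus those in Cd8a-negative cells. Capg had 3.92, Rgcc 2.08, Rpsa 0.76 and Rpl13 0.67, so their log2 infarction effect was more positive in Cd8a-positive cells. For Capg the size of this value rests on a sham level near 0 in Cd8a-positive cells. Tf had -4.34, Ctsh -4.03, Timp2 -2.90, Psap -2.62 and Fth1 -1.93. Without mixed droplets Capg, Rgcc, Rpsa and Ctsh were called and Rpl13, Psap and Fth1 were not, while Timp2 and Tf had too few counts to be tested. Leaving out each library in turn, Capg, Fth1 and Psap were called in 6 of 6 settings, Ctsh in 5, Rgcc, Timp2 and Tf in 3, and Rpl13 and Rpsa in 1.

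Outside the T cells, a Cd8a UMI was found in a mean of 16.7% ± 8.49 of the cells at or above the C1q limit in infarction, against 0.129% ± 0.119 in sham (SD, n = 3 each). These cells entered the T cell results only as part of the other kept cells and as a reference for single genes.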

How the results depend on the processing

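The count of 661 genes became 316 with a Scrublet score above 0.25 removed, 292 at most 10% mitochondrial UMIs, 393 with 57 T cells per library, 1486 with no filter on low counts, 344 without mixed droplets, 447 in DESeq2, and 396 to 800 when 1 library was left out (396 without infarction 2). With the replicate number as a block it was 724. Same-numbered libraries correlated at 0.021, 0.040 and -0.033, and differently numbered ones between -0.068 and 0.051. So few pairs cannot decide whether the numbers pair libraries. The Cd8a count of 73 became 211 with no filter and 47 to 116 without 1 library (47 without infarction 3, 116 without sham 3). The count of 65 became 13 with Scrublet, 43 with no filter, 10 without mixed droplets and 6 to 134 without 1 library (134 without sham 3). The T cell share difference of -0.34 points was 1.33 with at least 1 CD3 gene and -1.91 at most 10% mitochondrial UMIs, both with groups that did not overlap. The 10% limit acts unevenly on T cells and other cells, whose mitochondrial shares differed between the groups. The Foxp3 share difference stayed between 8.51 and 13.5 points.

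Values that turned sign were not called. Cd3d was -0.0082 with Scrublet, -0.055 with scaling on T cell genes, -0.15 at most 10% mitochondrial UMIs and -0.12 without mixed droplets, where Cd3e was -0.022; Gzmk was 0.023 with the block and 0.11 without Foxp3 cells. Without 1 library, Cd3d ranged between -0.085 and 0.23, Gzmk between -0.51 and 0.61, Cd8b between -0.35 and 0.0083, Il7r between -0.41 and 0.19 and Cxcr6 between -1.15 and 0.080; in the Cd8a comparison Cd3d ranged between -0.00032 and 0.24. The cause was not tested. Foxp3, Tnfrsf4, Tnfrsf18 and Crem were called in every setting in which they were tested. The fits of Cd4-only against Cd8a-only cells and of T cells against NK-like cells were not run.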
